A study of Arabidopsis thaliana with 12 samples.

Results

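The 10 genes described here are JAZ1 to JAZ10 of Arabidopsis thaliana, taken by their gene identifiers from the tables of reads per gene. They are 10 of 33602 genes in those tables, and the rule that names them uses no measured value, although the family was taken up with earlier results of these data known. The identifiers are AT1G19180 (JAZ1), AT1G74950 (JAZ2), AT3G17860 (JAZ3), AT1G48500 (JAZ4), AT1G17380 (JAZ5), AT1G72450 (JAZ6), AT2G34600 (JAZ7), AT1G30135 (JAZ8), AT1G70700 (JAZ9) and AT5G13220 (JAZ10). The data are 12 RNA-seq libraries in 4 groups of 3, which cross genotype with water supply. The genotypes were Col-0 (WT) and ahl10-1, a T-DNA insertion line (Salk_073165) named for AHL10, an AT-hook DNA-binding protein. All seedlings grew for 7 days on sugar-free half-strength Murashige-Skoog agar under continuous light. Control plates held a water potential of -0.25 MPa, and the stress plates, made with polyethylene glycol, held -0.7 MPa. Seedlings of all groups were transferred to these plates on day 7, and whole seedlings were harvested 96 h after transfer. The mutant groups come from a single insertion line. In whole seedlings, fewer cells that use a gene and less RNA of it per cell cannot be told apart.

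JAZ proteins are the repressors at the centre of jasmonate signalling. At rest they bind MYC2 and related bHLH transcription factors and recruit the corepressor TOPLESS, in most members through the adaptor NINJA. When the hormone jasmonoyl-isoleucine accumulates, the F-box protein COI1 binds JAZ proteins and marks them for degradation, which frees the MYC factors. Many JAZ genes are themselves targets of MYC factors, so that their transcripts rise soon after a jasmonate pulse, wounding or touch and restore repression.

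MYC factors bind the G-box, CACGTG, and G-box variants. Within 300 bases before the annotated gene start (RefSeq annotation, build TAIR10.1), the letters CACGTG were found before 4 of the 10 JAZ genes, namely JAZ2, JAZ3, JAZ7 and JAZ8. They were found before 7.09% of 27443 protein-coding genes in windows of the same length. These sites are shown because JAZ7 and JAZ8 were the least stable members between libraries, and JAZ2 and JAZ3 among the most stable ones. Each site is given 5′ to 3′ on the gene's strand with the G-box in capitals.
JAZ2, chr1:28150487-28150532, minus strand: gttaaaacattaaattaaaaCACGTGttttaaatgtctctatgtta
JAZ3, chr3:6119547-6119592, plus strand: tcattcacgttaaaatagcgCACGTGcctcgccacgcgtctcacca
JAZ3, chr3:6119605-6119650, plus strand: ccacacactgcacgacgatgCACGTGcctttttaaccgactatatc
JAZ7, chr2:14572976-14573021, plus strand: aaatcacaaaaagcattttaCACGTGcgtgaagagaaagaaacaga
JAZ8, chr1:10596322-10596351, plus strand: gtgtggaaaaaaacattttcCACGTGagag
The JAZ8 site lies 10 bases before the annotated start and the JAZ7 site 34 bases before it. The JAZ2 site lies 66 bases before the start, and the JAZ3 sites 140 and 82 bases before it. The variant CACATG, searched on both strands like every motif here, was found before JAZ9 and JAZ10 and before 13.1% of all genes. The letters ACGTGNC, a core of abscisic acid response elements, were found before JAZ3, JAZ6 and JAZ9 and before 9.46% of all genes. Both JAZ3 matches to ACGTGNC overlap its G-boxes. GCCGCC was found before none of the 10 and before 2.26% of all genes. A match describes letters only, and binding was not measured.

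Reads assigned to genes ranged from 57996104 to 68555138 per library. AHL10, which checks the genotype labels, was at 46.1 to 46.8 CPM (counts scaled to library size by TMM) in WT control and 21.3 to 25.7 in ahl10-1 control. Under stress it was at 63.2 to 65.4 CPM in WT and 27.9 to 33.0 in ahl10-1, so reads on the gene were reduced and not absent in the mutant. All 5 leaf markers were measured in every library, with a summed level of 20038 to 32962 CPM. The summed root markers reached 39.3 to 139 CPM, with both ends in WT control (39.3, 77.9 and 139 in replicate order). Flower markers summed to 5.996 to 13.4 CPM. Seed storage markers summed to 0.0960 to 1.92 CPM over the 2 of 5 that were tested, CRU1 and OLEO1. Of 11 rapid touch and wound response genes, the summed level was 2034 CPM in WT control replicate 1 against 318 and 655 in replicates 2 and 3. In ahl10-1 control it was 588, 230 and 547 CPM, with replicate 2 the low one, and in the 6 stress libraries 128 to 179. WT control replicate 1 thus stood apart on these genes, and ahl10-1 control replicate 1 stood apart in the levels of several JAZ genes. JAZ calls and signs that changed without these libraries are given with and without them, here or in the closing section.

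Every one of the 10 JAZ genes was detected in all 12 libraries, and none had multi-mapped reads. Per length, in length-normalised reads (RPKM) by the deposited gene lengths, JAZ9 and JAZ6 were the most abundant. JAZ9, a repressor that also binds the DELLA protein RGA, averaged 35.1 ± 6.59 RPKM in WT control and 30.8 ± 1.32 in WT stress (SD, n = 3). JAZ9 averaged 47.9 ± 16.2 RPKM in ahl10-1 control and 40.7 ± 7.80 in ahl10-1 stress. JAZ6, linked to clock-dependent resistance to Botrytis, averaged 39.9 ± 9.14 RPKM in WT control, 35.1 ± 5.31 in WT stress, 39.6 ± 12.6 in ahl10-1 control and 34.6 ± 2.65 in ahl10-1 stress. The 2 levels do not differ beyond their spread within any group. JAZ2, known from guard cells, followed at 20.8 to 22.4 RPKM in the group means. JAZ1, among the first JAZ repressors shown to be degraded through COI1, had group means of 12.4 to 18.5 RPKM. JAZ9, JAZ6 and JAZ2 together held 68.4% to 81.4% of the summed JAZ RPKM of a library.

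The remaining members were much lower per length. JAZ3, first known from the dominant jai3 mutant, had group means of 7.69 to 9.48 RPKM. JAZ5, which acts with JAZ10 against coronatine-induced chlorosis, had group means of 2.61 to 5.93 RPKM. JAZ4 and JAZ10 had group means of 1.82 to 2.43 and 1.502 to 2.48 RPKM, ranges within which the order of the pair is not fixed. JAZ7 and JAZ8 have the shortest transcripts of the members in the files (677 and 564 bases). JAZ8 had the lowest mean in all 4 groups, at 0.229 to 1.09 RPKM. JAZ7 had means of 0.499 to 2.12 RPKM and was next to lowest in 3 groups, but in ahl10-1 control its 2.12 was above the 1.85 of JAZ4. JAZ8 rested on 5 to 110 reads per library and JAZ7 on 14 to 265, so counting error is a larger part of their values than for JAZ9, with 2258 to 5817 reads.

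**Figure D1:**
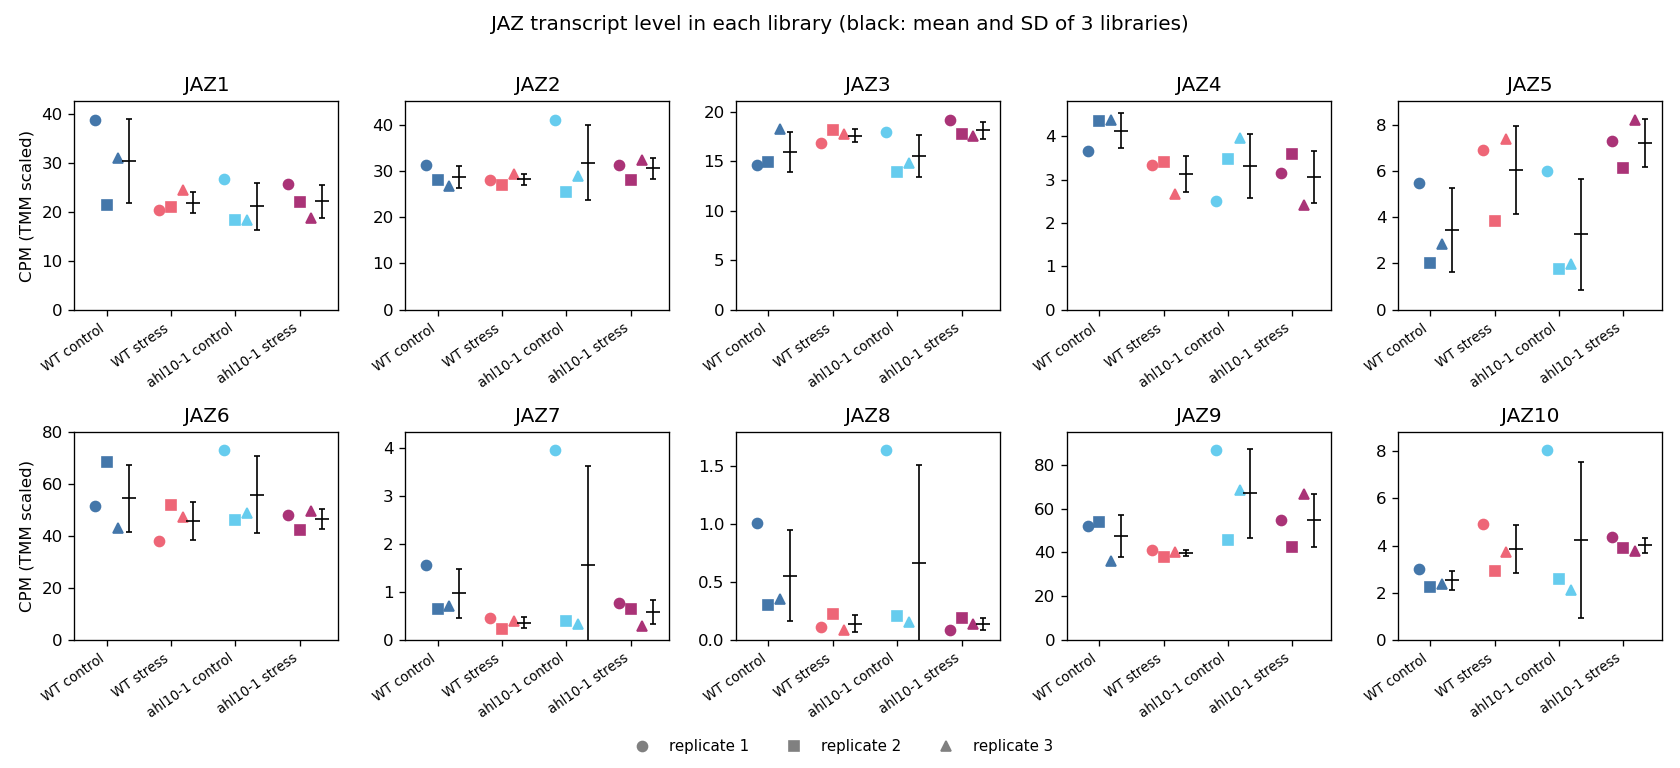
JAZ transcript levels in CPM (vertical axes, each from 0 and scaled to its gene) in the 12 libraries. Circles, squares and triangles are replicates 1, 2 and 3, and black marks give the mean and SD of 3 libraries, cut at the axis where the SD exceeds the mean. Replicate 1 of ahl10-1 control is the highest library for JAZ2, JAZ6, JAZ7, JAZ8, JAZ9 and JAZ10, at 3.95 CPM for JAZ7.

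The members differed widely in how much replicates of a group scattered. The SD of log2 CPM within groups was 1.12 for JAZ7, 1.05 for JAZ8, 0.667 for JAZ5 and 0.564 for JAZ10, against a median of 0.145 over all 22604 tested genes. These 4 genes stood at percentiles 99.4, 99.3, 95.6 and 93.0 of that scatter. Their mean levels were low, at 0.859, 0.373, 4.98 and 3.66 CPM, and the percentiles were not matched for level. JAZ3, with an SD of 0.137, was below the median, and JAZ2 was at 0.197. The highest JAZ7 library was 12.5-fold above the lowest in ahl10-1 control, and 2.01-fold to 2.64-fold above it in the other groups. Replicate 1 of ahl10-1 control was the highest of all 12 libraries for 6 members. The share of all tested genes that were highest in this library was not computed, so the count is not particular to JAZ genes. Over all tested genes it differed more from replicates 2 and 3 (chi-square per degree of freedom 108 and 84.4) than these from each other (48.9). Relative to the mean of replicates 2 and 3, ahl10-1 control replicate 1 was 11.3-fold higher for JAZ7, 9.18-fold for JAZ8, 3.44-fold for JAZ10 and 3.21-fold for JAZ5. For JAZ1, JAZ2, JAZ3, JAZ6 and JAZ9 the ratio was 1.25 to 1.54, and for JAZ4 it was 0.676. WT control replicate 1 exceeded the mean of its group's other replicates 3.10-fold for JAZ8, 2.30-fold for JAZ7, 2.26-fold for JAZ5 and 1.48-fold for JAZ1. Across the 12 libraries, the summed touch and wound genes were highest in WT control replicate 1, and JAZ7 and JAZ8 in ahl10-1 control replicate 1. Within WT control and within ahl10-1 control, replicate 1 was the highest library for that sum, for JAZ7 and for JAZ8. The lowest library of ahl10-1 control was replicate 2 for the sum and replicate 3 for JAZ7 and JAZ8. The part of touch or wounding in these values was not tested.

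**Figure D2:**
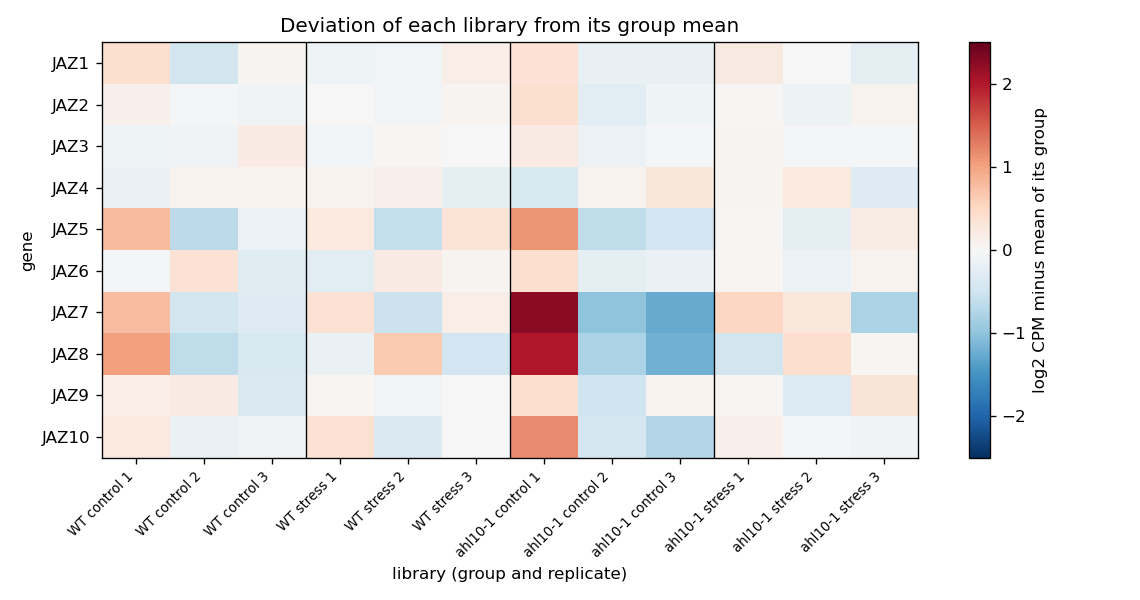
Deviation of each library (columns, by group and replicate) from the mean of its own group for each JAZ gene (lines of the grid), in log2 CPM. Red is above and blue below the group mean. The strongest red cells are JAZ7 and JAZ8 in ahl10-1 control replicate 1, which is also above its group for JAZ5 and JAZ10.

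Low water potential in WT was the first comparison. By edgeR's quasi-likelihood test, 0 of 10 JAZ genes reached the calling threshold, an adjusted p below 0.05, where 24.2% of all tested genes did. At an unadjusted p under 0.05 there were 2 members, JAZ1 and JAZ8, against 36.7% of all genes. Fold changes were below 0 for 7 members and above 0 for 3, with a median log2 fold change of -0.25 against 0.00 over all genes. In 3 members, JAZ4, JAZ7 and JAZ8, all stress libraries lay below all control libraries, and 43.3% of all genes had no overlap in either direction. The most abundant members differed little: JAZ2 had a log2 fold change of -0.03 (95% interval -0.34 to 0.28), JAZ6 -0.25 (-0.70 to 0.19) and JAZ9 -0.26 (-0.77 to 0.26).

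JAZ1 was at 38.8, 21.5 and 31.0 CPM in WT control and at 20.3, 20.9 and 24.4 CPM in WT stress, in replicate order. The control libraries reached higher, but replicate 2 overlapped the stress libraries. The log2 fold change was -0.48 (95% interval -0.94 to -0.01), with an adjusted p of 0.128 in edgeR's test. Without WT control replicate 2 it was -0.67 (adjusted p 0.0259), and without WT control replicate 1 it was -0.26 (adjusted p 0.421).

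JAZ7 and JAZ8 lack the canonical degron of other JAZ proteins or hold a divergent one, and JAZ8 recruits TOPLESS directly. JAZ7 was at 1.56, 0.645 and 0.705 CPM in WT control and at 0.441, 0.220 and 0.382 CPM in WT stress. JAZ8 was at 1.01, 0.298 and 0.352 CPM in WT control and at 0.110, 0.220 and 0.0831 CPM in WT stress. For both genes the 3 stress libraries lay below the 3 control libraries, with control replicate 1 far above the other controls. The log2 fold change was -1.47 for JAZ7 (95% interval -3.43 to 0.49, adjusted p 0.260) and -1.99 for JAZ8 (-3.96 to -0.03, adjusted p 0.130) in edgeR's test. These calls depended on libraries outside the comparison, because all 12 share one estimate of the spread. Without ahl10-1 control replicate 1, edgeR gave the same fold changes with adjusted p-values of 0.0326 for JAZ7 and 0.0224 for JAZ8, and JAZ10 was called as well (0.0415). With the WT libraries alone they were 0.0420 and 0.0457. Without WT control replicate 1 the log2 fold changes were -0.95 and -1.23, with adjusted p-values of 0.561 and 0.432. The authors' deposited table for this comparison lists JAZ7 at -0.99 (adjusted p 0.0118) and JAZ8 at -1.02 (adjusted p 0.0156). The authors' deposited table also has JAZ1 at -0.44 (adjusted p 0.0431) and JAZ10 at 0.55 (adjusted p 0.0401), so 4 of 10 members are called there, among 6352 of 23692 genes.

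JAZ4 was at 3.66, 4.35 and 4.37 CPM in WT control and at 3.34, 3.41 and 2.66 CPM in WT stress. The groups did not overlap, and the log2 fold change was -0.40 (95% interval -0.82 to 0.03). JAZ5 was at 5.49, 2.00 and 2.85 CPM in WT control and at 6.89, 3.83 and 7.36 CPM in WT stress. Here control replicate 1 overlapped the stress libraries, and the log2 fold change was 0.80 (95% interval -0.28 to 1.88, adjusted p 0.264 in edgeR's test). JAZ10, whose alternative splicing yields degradation-resistant repressors, was at 2.99, 2.22 and 2.37 CPM in WT control and at 4.92, 2.92 and 3.72 CPM in WT stress. Its lowest stress library was just under its highest control library, and the log2 fold change was 0.61 (95% interval -0.32 to 1.54, adjusted p 0.325). With both control libraries numbered 1 left out, edgeR called JAZ5 at 1.31 (adjusted p 0.00835) and JAZ10 at 0.75 (adjusted p 0.0348). That fit was added after the data were seen. Each library left out was the highest of its group for both genes, so leaving them out raises these fold changes by construction. In the TAIR10.1 annotation the gene AT5G02045 overlaps JAZ10. The deposited values use a JAZ10 length of 1558 bases, against 2215 exon bases in TAIR10.1. The lengths used were below the TAIR10.1 exon bases for all 10 members, for example 1133 against 2237 for JAZ5 and 1527 against 1804 for JAZ1. The counting may therefore rest on another annotation, and RPKM rankings depend on the lengths used. Whether AT5G02045 was counted, and with what strand setting, is not known here.

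**Figure D3:**
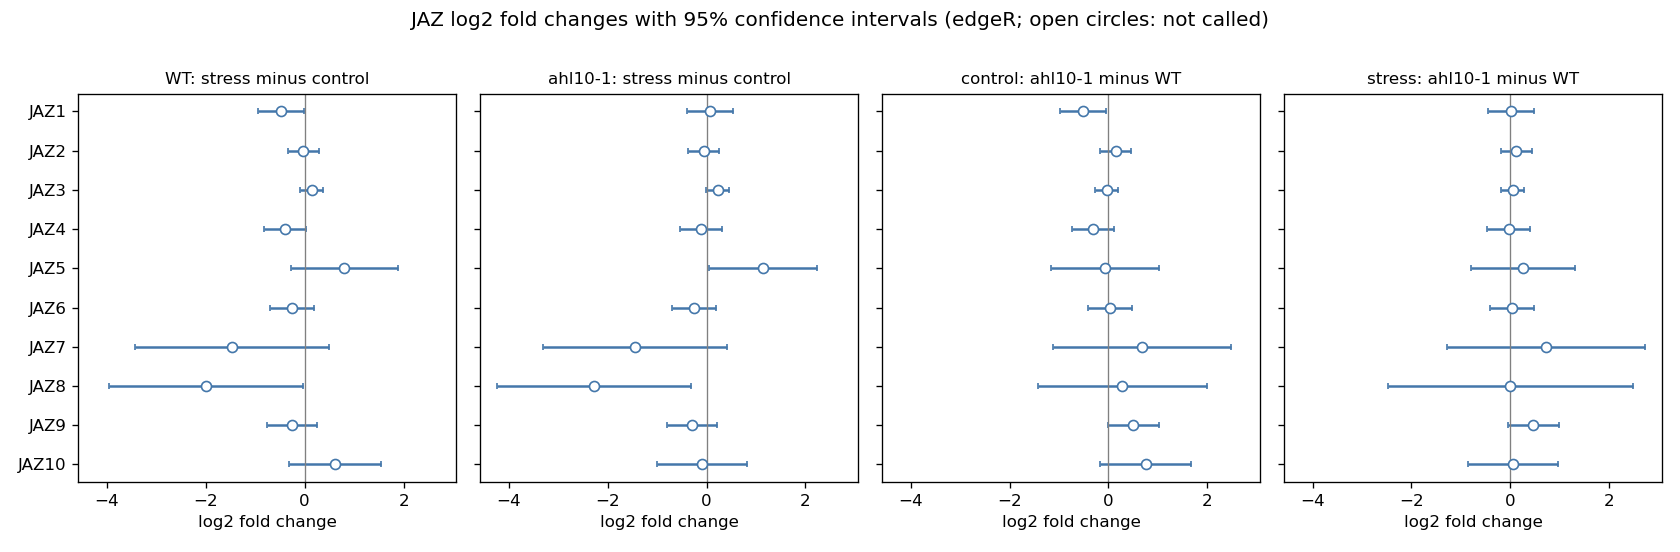
Log2 fold changes of the 10 JAZ genes with 95% confidence intervals in edgeR, for stress minus control in WT and in ahl10-1 and for ahl10-1 minus WT in control and under stress. All circles are open because no member was called in any of the 4 comparisons. The widest intervals are those of JAZ7 and JAZ8.

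In ahl10-1, JAZ5 and JAZ8 had the lowest p-values for stress against control, in opposite directions. Again 0 of 10 members were called, where 27.8% of all genes were. The 2 with an unadjusted p under 0.05 stand against 39.4% of all genes. JAZ5 was the 1 member whose groups did not overlap, against 40.2% of all genes. Its level was 6.01, 1.76 and 1.99 CPM in ahl10-1 control and 7.29, 6.14 and 8.19 CPM in ahl10-1 stress. All stress libraries were higher, with control replicate 1 just below the lowest of them. The log2 fold change was 1.14 (95% interval 0.05 to 2.22, adjusted p 0.111 in edgeR's test). Without ahl10-1 control replicate 1 it was 1.94 and was called (adjusted p 0.00749). JAZ5 was also called with the replicate number as a block, at 1.33 (adjusted p 0.0147), and by limma on log2(RPKM + 1), at 1.08 on that scale (adjusted p 0.0479).

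JAZ8 was at 1.64, 0.208 and 0.149 CPM in ahl10-1 control and at 0.0876, 0.190 and 0.138 CPM in ahl10-1 stress. Control replicate 1 stood alone, and the other control libraries were close to the stress libraries. The log2 fold change was -2.28 (95% interval -4.23 to -0.32, adjusted p 0.0791), and without that library it was -0.38 (adjusted p 0.728). DESeq2 on all 12 libraries called it at -2.27 (adjusted p 0.0304), and edgeR did so without ahl10-1 control replicate 2 (adjusted p 0.0449) or 3 (adjusted p 0.0413). JAZ7, at 3.95, 0.384 and 0.316 CPM in control and 0.774, 0.648 and 0.294 CPM under stress, had the same high library. Its log2 fold change was -1.44 (95% interval -3.30 to 0.42) with that library and 0.71 without it. JAZ10 was at 8.04, 2.58 and 2.101 CPM in ahl10-1 control and at 4.38, 3.89 and 3.75 CPM in ahl10-1 stress. Its log2 fold change turned from -0.09 with ahl10-1 control replicate 1 to 0.77 without it, and the latter was called (adjusted p 0.0257). JAZ3 was at 17.9, 13.9 and 14.9 CPM in ahl10-1 control and at 19.1, 17.8 and 17.5 CPM in ahl10-1 stress. The log2 fold change of JAZ3 was 0.22 (95% interval -0.01 to 0.45, adjusted p 0.142), or 0.34 without that library (adjusted p 0.0267). The other members had log2 fold changes of -0.30 to 0.06.

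The difference between the stress responses of the 2 genotypes was tested as an interaction. No member was called, and 0% of all genes were, with 1.42% at an unadjusted p under 0.05 and 0 of the 10 members. The interaction term ranged from -0.70 for JAZ10 (95% interval -2.00 to 0.60) to 0.54 for JAZ1 (-0.12 to 1.197). DESeq2 called 1 gene in all and no JAZ gene. Without ahl10-1 control replicate 1 the term of JAZ7 was 2.18 in place of 0.03, and it was not called.

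**Figure D4:**
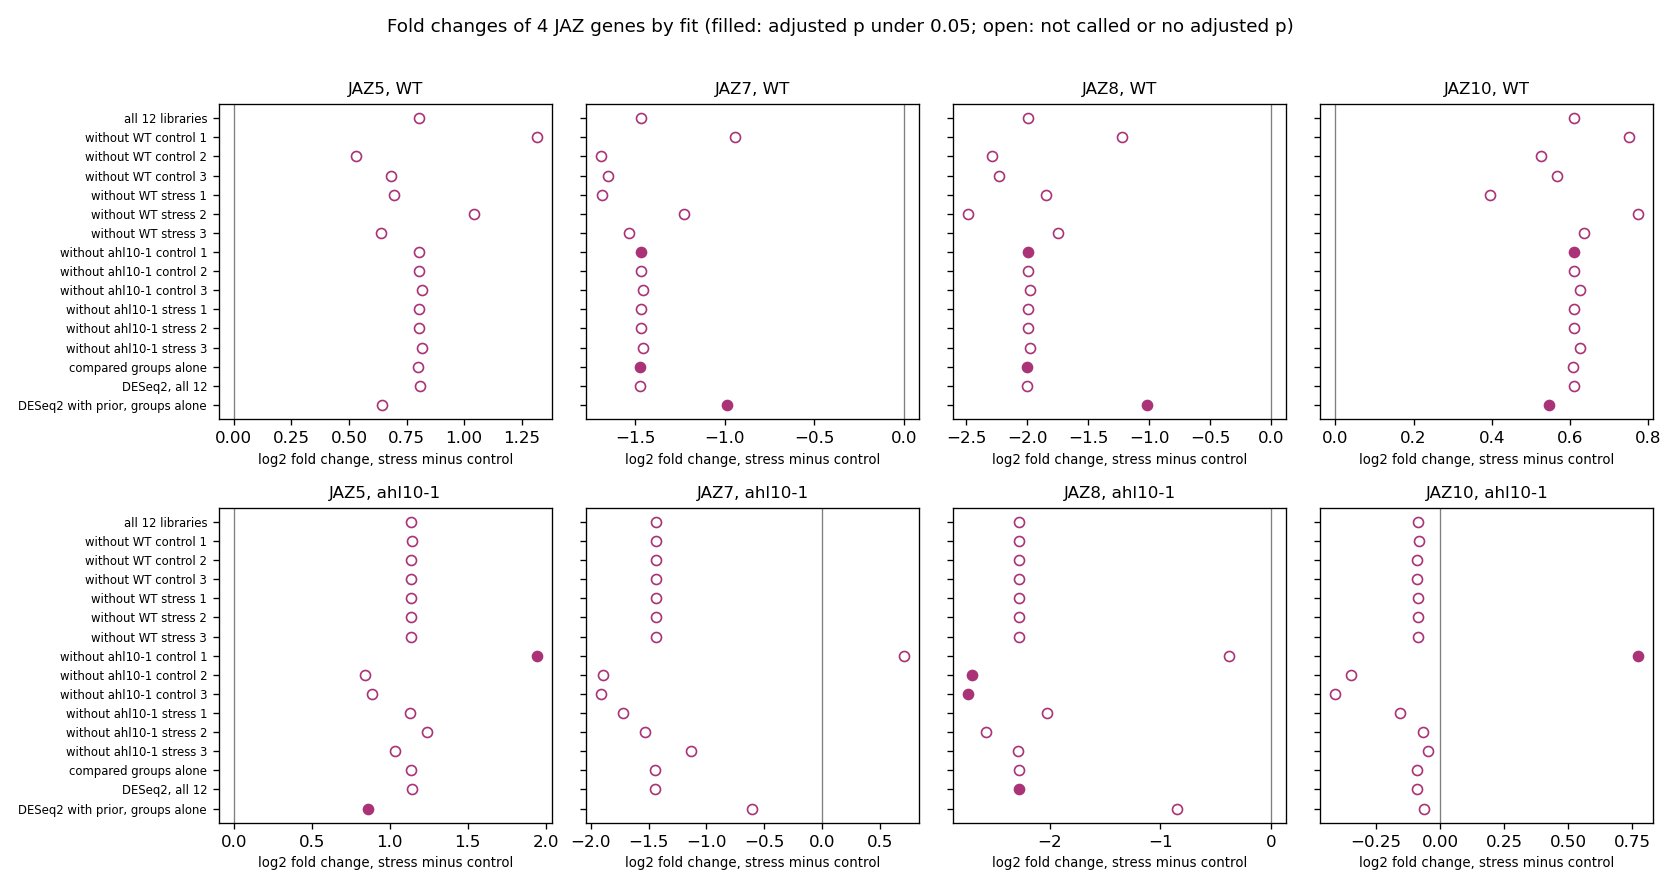
Log2 fold changes of JAZ5, JAZ7, JAZ8 and JAZ10 (horizontal axes, stress minus control, each with its own scale) by fit: all 12 libraries, each library left out, the compared groups alone, and DESeq2 without and with a fold change prior. Filled circles are called at an adjusted p under 0.05. In ahl10-1 the point without ahl10-1 control replicate 1 lies far from the others in all 4 genes, at 0.71 for JAZ7 and 0.77 for JAZ10.

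Between genotypes in control, JAZ1 was lower in ahl10-1 and JAZ9 higher, each with overlapping libraries. No member was called, against 0.0177% of all genes, and 1 member, JAZ1, had an unadjusted p under 0.05, against 5.34% of all genes. None had groups without overlap, against 7.67% of all genes. JAZ1 was at 26.7, 18.4 and 18.4 CPM in ahl10-1 control, against the WT control values above. Replicate 1 of ahl10-1 exceeded replicate 2 of WT. Its log2 fold change was -0.52 (95% interval -0.99 to -0.06, p 0.0315, adjusted p 0.854 in edgeR's test). JAZ9 was at 52.0, 53.7 and 36.2 CPM in WT control and at 86.6, 45.8 and 68.5 CPM in ahl10-1 control. Only replicate 2 of ahl10-1 fell within the WT range, and the log2 fold change was 0.50 (95% interval -0.01 to 1.01, adjusted p 0.854). JAZ10 had a log2 fold change of 0.75 (95% interval -0.17 to 1.68), which was -0.11 without ahl10-1 control replicate 1. That library also set the sign for JAZ7, at 0.69 with it and -1.46 without it, and for JAZ8, at 0.28 and -1.62. The authors' deposited table calls none of the 9 members that have an adjusted p there.

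Genotype under stress asked whether stressed mutant seedlings held other JAZ levels than stressed WT seedlings. Log2 fold changes were -0.04 to 0.26 in 8 members, 0.46 in JAZ9 and 0.72 in JAZ7. No member was called, against 0.0265% of all genes, and none had an unadjusted p under 0.05, against 3.75%. Fold changes were above 0 in 9 members, with a median log2 fold change of 0.05 against 0.01 over all genes. JAZ9 was the 1 member whose groups did not overlap, against 11.9% of all genes. It was at 40.8, 37.9 and 40.0 CPM in WT stress and at 54.7, 42.3 and 66.6 CPM in ahl10-1 stress. All 3 mutant libraries were above the highest WT library, replicate 2 by little. The log2 fold change was 0.46 (95% interval -0.05 to 0.97, p 0.0721, adjusted p 0.999 in edgeR's test), and it was 0.28 to 0.62 as each library was left out. The authors' deposited table lists JAZ9 at 0.28 (adjusted p 0.229), its lowest for a JAZ gene, where 85 genes are called.

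For JAZ1, JAZ2, JAZ3, JAZ4 and JAZ6 the log2 fold changes under stress were -0.04 to 0.12. JAZ2 was at 28.2, 27.0 and 29.5 CPM in WT stress and at 31.4, 28.1 and 32.4 CPM in ahl10-1 stress. The groups overlapped, and the log2 fold change was 0.12 (95% interval -0.19 to 0.43). JAZ3, at 16.9, 18.1 and 17.8 CPM in WT stress, had a log2 fold change of 0.05 (95% interval -0.19 to 0.28). JAZ1 had one of 0.02 (-0.45 to 0.48) and JAZ6 one of 0.03 (-0.42 to 0.47). JAZ4, which with JAZ1 represses the cold regulator ICE1, had one of -0.04 (-0.47 to 0.39). The upper bounds correspond to levels 1.40-fold those of WT for JAZ1 and 1.39-fold for JAZ6. JAZ5 had a log2 fold change of 0.26 (-0.80 to 1.32) and JAZ10 of 0.05 (-0.86 to 0.97). For JAZ7 the log2 fold change of 0.72 had an interval of -1.28 to 2.72, and for JAZ8 the interval was -2.48 to 2.48, so differences of several-fold were not detectable at this depth and scatter.

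The summed JAZ level was 166 to 203 CPM in WT control, 160 to 173 in WT stress, 158 to 267 in ahl10-1 control and 167 to 200 in ahl10-1 stress. All 4 ranges overlapped, and the sum mostly reads JAZ9, JAZ6, JAZ2 and JAZ1. Likeness of pattern is given as a description over the 12 libraries, which differ in treatment and depth. The genes named are the 3 with the highest correlation among all tested genes outside the members, and no p-value was computed. The closest genes to JAZ9 by Pearson correlation of log2 CPM were AT1G68260 (0.884), AT5G09225 (0.880) and AT1G60160 (0.874). JAZ6 was most like RGL1, a DELLA gene (0.928), AT1G62120 (0.913) and CYP706A3 (0.894). JAZ2 was most like PGIP2, a polygalacturonase inhibitor gene (0.917), AT5G44572 (0.909) and AT5G26751 (0.895). JAZ1 was most like AT5G63130 (0.921), AT1G07520 (0.913) and FBS1, an F-box gene induced by stress (0.907).

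The rest of the pathway gives the setting in which JAZ transcripts were measured. In WT, stress raised 6 of 14 tested jasmonate synthesis genes and lowered none, where 11.7% of all tested genes were called higher and 12.5% lower. The count for synthesis was 5 to 7 as each library was left out. LOX2, the plastid lipoxygenase, rose by 2.99 on the log2 scale (adjusted p 3.17e-05 in edgeR's test). AOC2, an allene oxide cyclase gene, rose by 1.27 and KAT2, a thiolase of beta-oxidation, by 0.45. Of 9 output genes 5 rose, among them VSP2 by 2.72, CORI3 by 2.75 and VSP1 by 1.83, and also CLH1 by 1.04 and THI2.1 by 6.32, while ORA59 fell by 2.74. The last 3 are named because of the small count, after their values were seen. Of 7 bHLH factors that JAZ proteins bind, the 1 that rose was AT5G46830, by 3.08, and MYC4 had -0.18 without a call. Of 9 inactivation genes 1 rose, AT3G11180 by 2.78, and 1 or 2 were called as each library was left out. Of 5 receptor complex genes none was called, with COI1 at -0.09. Among 6 corepressor genes TPR4 rose by 0.24, but no corepressor gene was called without WT control replicate 1, 2 or 3 or without WT stress replicate 2 or 3. In the 9 other genes of the TIFY family, to which JAZ genes belong, JAZ12 rose by 0.25 and ZIM by 0.23, and TIFY8 fell by 0.29. JAZ12 was at 63.5, 60.5 and 57.4 CPM in WT control and 72.4, 68.3 and 75.1 in WT stress, without overlap (adjusted p 0.0449). Of these TIFY genes in WT, 0 were called without WT control replicate 1, WT stress replicate 1 or WT stress replicate 3, and 1 without any other WT library. JAZ12 was called in ahl10-1 too, at 0.29.

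In ahl10-1, stress raised 9 of 14 synthesis genes and 6 of 9 output genes, and ORA59 fell there as well, where 14.2% of all tested genes were called higher and 13.5% lower. The 3 inactivation genes that rose were AT3G11180, AT5G05600 and CYP94B3, and the 2 bHLH genes were AT5G46830 and JAM3. The inactivation count was 5 without ahl10-1 control replicate 1, and 1 without ahl10-1 control replicate 2 or 3 or ahl10-1 stress replicate 1. AT5G05600 and, in the next list, TCH3 are named for their small counts. All 11 touch and wound genes were called lower in WT and 4 in ahl10-1, namely TCH2, TCH3, ZAT10 and CAF1A. In ahl10-1 the log2 fold changes of all 11 were below 0, at -2.56 to -0.41. CAF1A fell by 3.34 in WT, from 195, 39.1 and 68.5 CPM to 9.39, 12.9 and 7.60. The WT count for this list was 2 with the WT libraries alone, 3 without WT stress replicate 1 or 2, 4 without WT stress replicate 3, 6 without WT control replicate 1 and 4 without both control libraries numbered 1. The ahl10-1 count was 9 with the ahl10-1 libraries alone and 8 without WT control replicate 1. It was 2 without ahl10-1 control or stress replicate 1, and 1 without ahl10-1 control replicate 3 or ahl10-1 stress replicate 2 or 3. Between genotypes, and in the interaction, edgeR called 0 genes of every list. Under stress, AOS and AOC1 of jasmonate synthesis were higher in all 3 ahl10-1 libraries, at 0.51 (p 4.02e-04, adjusted p 0.526) and 0.69 (p 0.00355, adjusted p 0.999) in edgeR's test, where 11.9% of all genes had no overlap in either direction and neither of these was called. VSP2 likewise was at 516, 432 and 634 CPM in WT stress and 727, 743 and 781 in ahl10-1 stress, a log2 fold change of 0.51 (adjusted p 0.999).

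**Figure D5:**
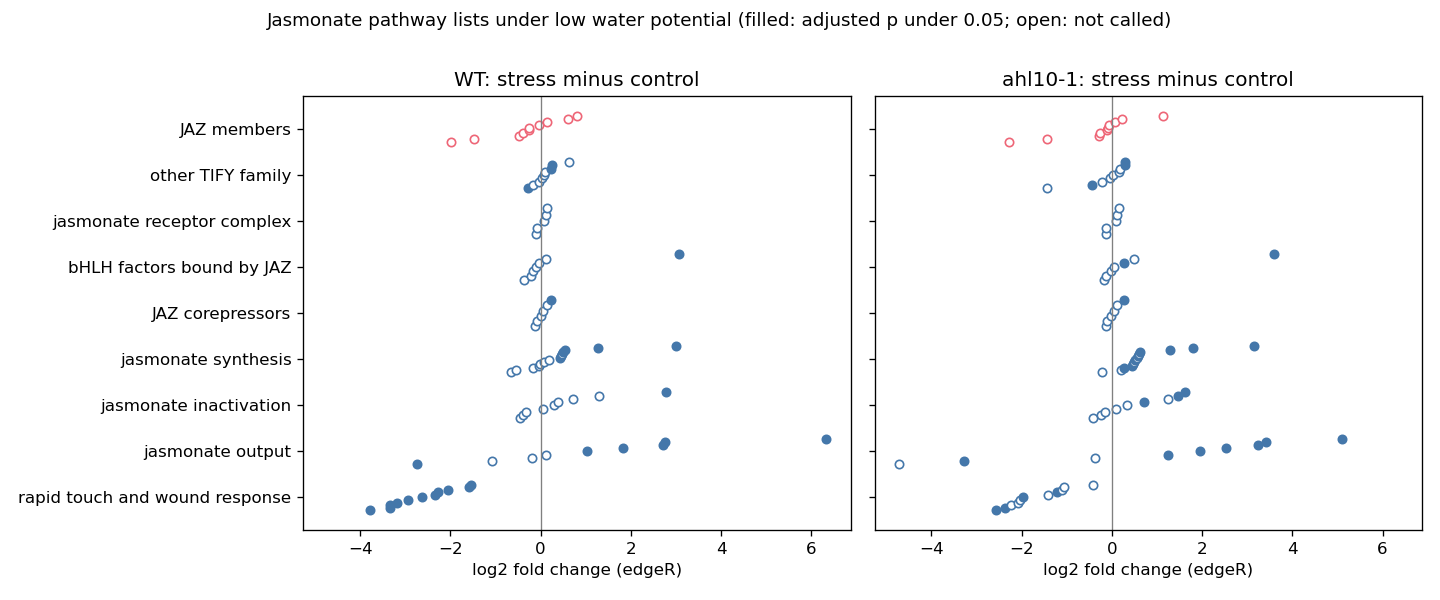
Log2 fold changes under low water potential in edgeR for the JAZ genes (red) and the other jasmonate pathway lists (blue), in WT and in ahl10-1. Each circle is a gene, filled where its adjusted p was under 0.05. The JAZ circles are all open and lie on both sides of 0, while filled circles to the right of 0 include 6 of 14 synthesis genes and 5 of 9 output genes in WT.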

How the data were processed

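The 12 libraries were poly-A selected and strand-specific, per the labels, and come from 3 independent experiments. The submitters' processing notes name CASAVA, bcl2fastq 1.8.4, Bowtie2, DESeq2 and the build TAIR10. The counting tool, its annotation and its strand setting are not given in the sources used here. The authors deposited estimated counts per gene, RPKM per gene and the fraction of multi-mapped reads. The authors' deposited comparison tables hold a log2 fold change, a p-value and a base mean, a score used here only to identify the table. Estimated counts were rounded. Genes were kept by filterByExpr (minimum count 10, minimum total 15), which left 22604, all 10 JAZ genes among them.

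One model of all 12 libraries with 4 group means was fitted by edgeR 4.0.16 (TMM, robust quasi-likelihood, R 4.3.3), which gave 8 residual degrees of freedom. Benjamini-Hochberg adjustment ran over all tested genes, with calls below 0.05. CPM are scaled by TMM, and log2 CPM use a prior count of 2. Intervals are at 95%. No pair of replicates agreed within sampling noise, with a chi-square per degree of freedom of 16.0 to 108, so each counts as 1 sample.

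The 10 members, the pathway and marker lists, and the tests were chosen with earlier results of these data known. Named genes were all members, AHL10, and for each pathway list up to 3 genes with the smallest p for stress in WT and up to 3 for genotype under stress. Genes of like pattern were the 3 with the highest correlation to each of the 4 members with the most reads. The alternatives were RLE and upper quartile scaling, no filter and at least 1 CPM in 3 libraries, edgeR without robust estimation, DESeq2 1.42.0, limma 3.58.1 on log2(RPKM + 1) and log2(RPKM + 0.1), the compared groups alone, removal of multi-mapped reads, the replicate number as a block, and each library left out. After the data were seen, 3 were added: both control libraries numbered 1 left out, the ahl10-1 libraries alone with the replicate block, and DESeq2 fits of each pair of groups with shrunken fold changes (a prior). Replicate numbers come from the sample titles. Deviations of same-numbered libraries from their group means correlated weakly, at 0.112, 0.110 and 0.188, for stress in ahl10-1. The labels do not say that a number marks 1 experiment across groups, so pairing was not established. In the other comparisons not all correlations were over 0.1. Sequences and coordinates come from RefSeq's TAIR10.1 assembly, with all 10 identifiers matched. Figures were drawn with matplotlib 3.10.9.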

Additional observations from a re-analysis of the deposited data

How the results depend on the processing

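No JAZ gene was called between genotypes or in the interaction under any alternative. The calls for stress changed with the fit. In WT, the count of JAZ genes called was 0 to 3 as each library was left out, 2 with the compared groups alone, 2 with both control libraries numbered 1 left out and 4 in DESeq2 with a fold change prior. In ahl10-1 it was 0 to 3 as each library was left out and 3 without both control libraries numbered 1. There it was 1 in DESeq2, in DESeq2 with the prior and in limma on log2(RPKM + 1). With the replicate block it was 1 in the fit of all libraries (JAZ5) and 0 in the ahl10-1 libraries alone, with JAZ10 turning to 0.094 and 0.15 and the interaction of JAZ8 to 0.036, and it changed no other JAZ call. The count over all genes for stress in WT was 3567 without WT stress replicate 1, and at most 5975 with another library left out. For genotype in control it was 24 in DESeq2, 18 with the prior, 7 with the compared groups alone and 3 to 12 as each library was left out, 12 of them without ahl10-1 control replicate 1. For genotype under stress it was 34 in DESeq2 and 77 with the prior, and for the interaction 1 in DESeq2.

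Log2 fold changes of JAZ genes that changed sign follow, and the cause was not tested. With both control libraries numbered 1 left out, JAZ2 was at 0.043 for stress in WT, and JAZ2 at 0.18, JAZ7 at 0.72 and JAZ10 at 0.78 for stress in ahl10-1. JAZ2 was then at -0.011, JAZ6 at -0.24, JAZ7 at -0.94 and JAZ8 at -0.85 for genotype in control, with JAZ2 at 0.14, JAZ6 at 0.27, JAZ8 at 0.85, JAZ9 at 0.12 and JAZ10 at 0.028 for the interaction. In limma on log2(RPKM + 1), JAZ2 was at 0.038 for stress in WT, JAZ2 at 0.046 and JAZ10 at 0.12 for stress in ahl10-1, and JAZ6 at -0.030 and JAZ8 at -0.014 for genotype in control. On that scale JAZ1 was at -0.040, JAZ3 at -0.0083, JAZ6 at -0.015 and JAZ8 at -0.0072 for genotype under stress, and JAZ2 at 0.0076, JAZ6 at 0.015 and JAZ8 at 0.0072 for the interaction. In limma on log2(RPKM + 0.1), JAZ2 was at 0.040 for stress in WT, JAZ2 at 0.049 and JAZ10 at 0.24 for stress in ahl10-1, and JAZ6 at -0.031, JAZ7 at -0.17 and JAZ8 at -0.29 for genotype in control. With 0.1 added, JAZ1 was at -0.043, JAZ3 at -0.0094, JAZ6 at -0.016 and JAZ8 at -0.0054 for genotype under stress, and JAZ2 at 0.0092, JAZ6 at 0.016 and JAZ8 at 0.28 for the interaction. With upper quartile scaling, JAZ2 was at 0.015 for stress in WT, and JAZ1 at -0.011, JAZ6 at -4.0e-04 and JAZ8 at -0.029 for genotype under stress. JAZ8 under stress was at -2.0e-05 in DESeq2 with the prior, -4.1e-04 without multi-mapped reads and -3.0e-04 without the filter.

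Leaving out each library in turn, the ranges that crossed 0 for stress were -0.075 to 0.043 for JAZ2 in WT, and in ahl10-1 -0.058 to 0.27 for JAZ1, -0.19 to 0.17 for JAZ2, -0.28 to 0.028 for JAZ4, -1.91 to 0.71 for JAZ7 and -0.41 to 0.77 for JAZ10. For genotype in control they were -0.080 to 0.28 for JAZ2, -0.15 to 0.073 for JAZ3, -0.88 to 0.43 for JAZ5, -0.20 to 0.24 for JAZ6, -1.46 to 1.21 for JAZ7, -1.62 to 1.05 for JAZ8 and -0.11 to 1.08 for JAZ10. For genotype under stress they were -0.10 to 0.11 for JAZ1, -0.17 to 0.094 for JAZ4, -0.090 to 0.13 for JAZ6, -0.30 to 0.49 for JAZ8 and -0.11 to 0.27 for JAZ10. For the interaction they were -0.16 to 0.20 for JAZ2, -0.028 to 0.20 for JAZ3, -0.17 to 1.14 for JAZ5, -0.21 to 0.23 for JAZ6, -0.49 to 2.18 for JAZ7, -1.05 to 1.62 for JAZ8, -0.25 to 0.19 for JAZ9 and -1.03 to 0.16 for JAZ10.

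DESeq2 gave no adjusted p for JAZ7 in the fit of all libraries. Depth limits JAZ8 most, with 5 reads in its lowest library. The single insertion line, and 3 libraries per group, limit every genotype comparison.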
